A study of Mus musculus with 12 samples.

Results

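Potassium channel genes were followed in the hippocampus of C57BL/6 mice dosed intranasally with 10 µg of siRNA (small interfering RNA, which lowers a chosen transcript) and killed 3 days later. The genes are the protein-coding rows of the expression tables whose symbol begins with Kcn, other than Kcne2 and Kcnj8, and there were 63 of them among 22306 loci, of which 12218 were protein-coding. The 12 libraries fell into 3 groups of 4, labelled siHdac4 (siRNA against Hdac4, a histone deacetylase), siBdnf (siRNA against Bdnf, a neurotrophin) and siScramble (a scrambled control siRNA). All groups shared strain, route, dose and interval, and age and sex were left unstated in the labels. Levels are FPKM, fragments mapped, scaled by transcript length and by library size, as the authors deposited them for each library. Whether 1 library stands for 1 animal is not stated in the labels, so a p-value here reflects only how far these 12 libraries scatter.

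Potassium channels let potassium leave or enter a cell and so set its resting voltage, the shape of its action potentials and how often it fires. Voltage-gated subunits (Kv) assemble in fours around a pore, silent subunits and accessory proteins alter those assemblies, inward rectifiers and tandem-pore channels work near rest, and calcium- or sodium-activated channels follow activity. In the hippocampus, A-type currents in pyramidal cell dendrites, M currents at axons and G protein-gated inward rectifiers are the classic examples.

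The siRNA targets themselves gave no check of the labels, because neither was lower in its own libraries by more than the spread between libraries. Hdac4 averaged 41.0 ± 5.93 FPKM in the libraries labelled siHdac4, 40.0 ± 3.68 FPKM in siBdnf and 39.2 ± 5.94 FPKM in siScramble (SD, n = 4 each). Bdnf averaged 5.73 ± 0.591 FPKM in siHdac4, 5.19 ± 0.255 FPKM in the libraries labelled siBdnf and 5.37 ± 0.174 FPKM in siScramble (SD, n = 4 each). The siScramble libraries 1 and 3 stood apart in choroid plexus transcripts: the summed level of 10 markers was 1083 and 2696 FPKM there, against 65.5 to 136.6 FPKM in siHdac4, 72.4 to 162.7 FPKM in siBdnf and 68.3 to 81.5 FPKM in the other two siScramble libraries. Aqp1 and Slc4a5, both on that list, were at 0 in some library. Summed hippocampal markers overlapped between groups, with dentate granule cell markers at 89.5 to 132.2 FPKM in siHdac4, 81.98 to 133.6 FPKM in siBdnf and 105.5 to 151.4 FPKM in siScramble. Tests were made with limma on log2(FPKM + 1), at the 18387 loci averaging 1 FPKM or more.

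Every one of the 63 genes had a value above 0 in every library. By mean over the 12 libraries, 15 genes lay at 20 FPKM or more, 21 at 5 to under 20, 20 at 1 to under 5 and 7 under 1 FPKM. The 56 genes at 1 FPKM or more were tested, Kcng4 at 1.02 FPKM being just inside that limit and Kcnk6 at 0.948 FPKM just outside. The 5 highest genes made up 36.7% of the summed level. The median tested gene stood at 7.51 FPKM, against 11.2 FPKM over the 11061 protein-coding loci tested.

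**Figure D1:**
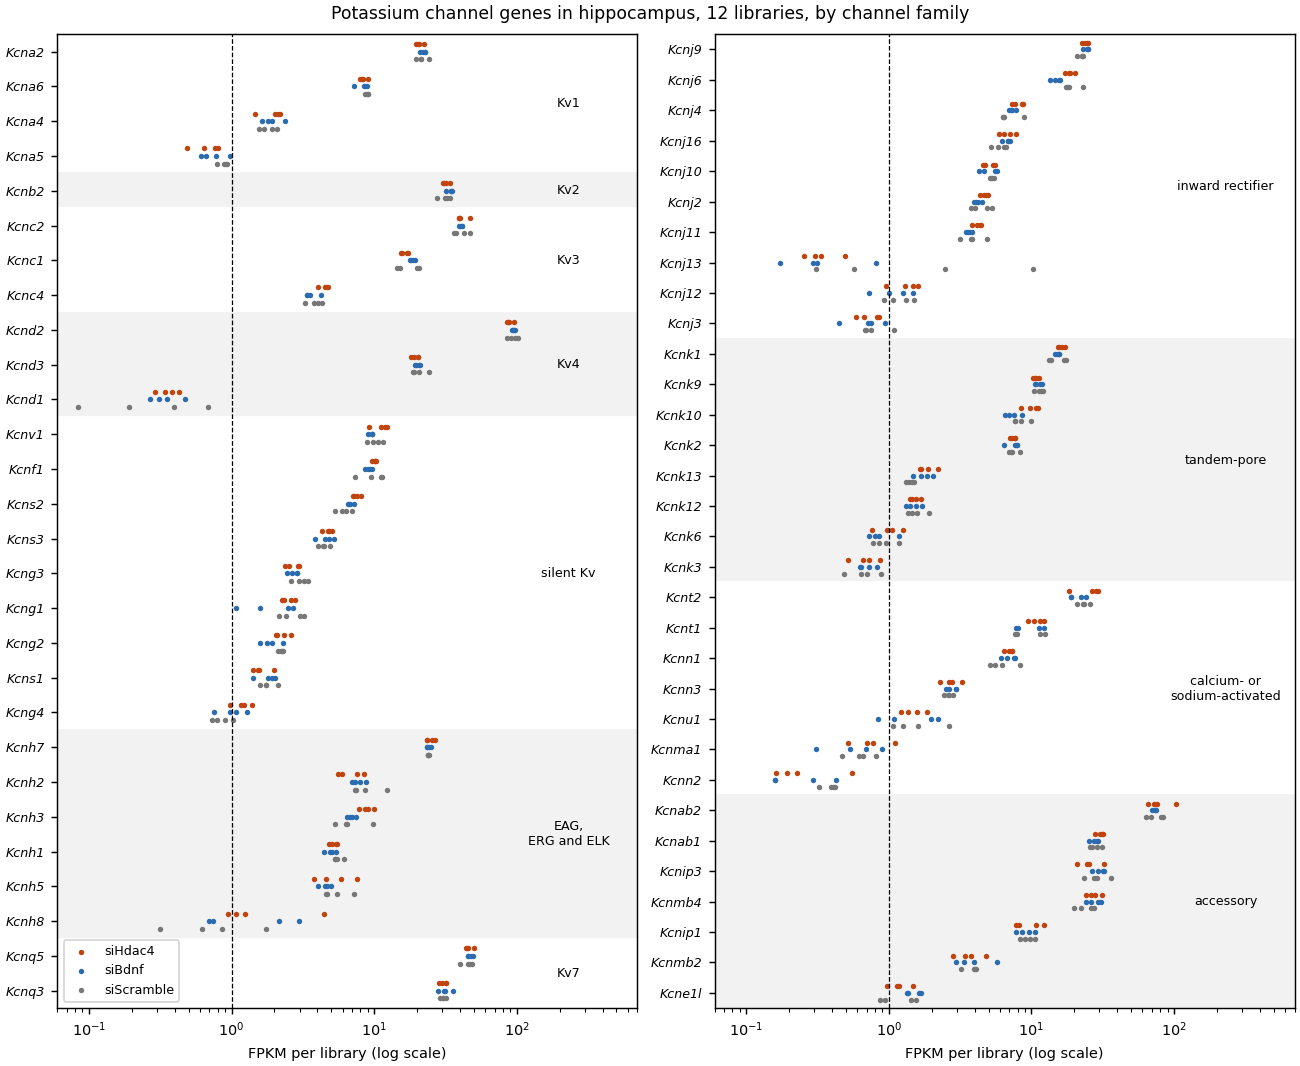
FPKM of potassium channel genes in each library (log scale), grouped by channel family and ordered by mean within it, with siHdac4, siBdnf and siScramble drawn from top to bottom at each gene; the dashed line marks 1 FPKM. Most genes show the 3 groups on top of each other, from Kcnd2 near 92.5 FPKM to Kcnn2 near 0.309 FPKM, while Kcnj13 is spread over siScramble.

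Among the pore-forming Kv genes, Kcnd2, which carries the A-type current of pyramidal cell dendrites, was the highest of all at 92.5 ± 5.07 FPKM (SD, n = 12). Its values were 95.6, 88.2, 87.1 and 85.2 FPKM in siHdac4, 92.4, 94.5, 96.6 and 95.9 FPKM in siBdnf, and 85.8, 90.5, 96.5 and 101.2 FPKM in siScramble. The groups overlap, and the highest and the lowest value are a siScramble and a siHdac4 library. Its relative Kcnd3 stood at 20.04 FPKM, and Kcnd1 was listed at 0.350 FPKM from a locus with 27.6% of the gene's coding bases.

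The Kv7 genes, whose products carry the M current that restrains repetitive firing, followed at 46.0 FPKM for Kcnq5 and 30.7 FPKM for Kcnq3. Kcnq5 and Kcnc2, a Kv3 gene of fast-spiking interneurons at 40.95 ± 3.12 FPKM, lay next to each other in the order, and their ranges over libraries overlapped, as the ranges of Kcnd2 and Kcnab2 did.

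In the other Kv families, Kcnb2, the Kv2 delayed rectifier measured here, stood at 32.3 FPKM and Kcna2, an axonal Kv1 channel, at 21.5 FPKM. Kcnc1, which with Kcnc2 lets interneurons fire fast, was at 17.5 FPKM and Kcnc4 at 3.995 FPKM. Kcna6 was at 8.54 FPKM and Kcna5 at 0.769 FPKM. Kcna4 was listed at 1.89 FPKM, but its locus held 0% of the gene's coding bases and lay 52.4 kb outside the annotated gene. Kcna1 was only part of a merged locus and is outside the 63.

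Of the EAG, ERG and ELK genes, Kcnh7, an ERG channel, was the highest at 24.2 FPKM. Kcnh2, the ERG gene of cardiac repolarisation, followed at 7.87 FPKM and Kcnh3, an ELK channel of forebrain neurons, at 7.58 FPKM. The EAG channels Kcnh1 and Kcnh5 stood at 5.24 and 5.17 FPKM, and Kcnh8, another ELK gene, at 1.49 FPKM. The silent Kv genes, whose products form no channel alone but modify Kv2 channels, ranged from 1.02 FPKM for Kcng4 to 10.3 FPKM for Kcnv1, with Kcnf1 at 9.69 FPKM. Between them lay Kcns2, Kcns3, Kcng3, Kcng1, Kcng2 and Kcns1 at 6.81, 4.58, 2.82, 2.39, 2.13 and 1.74 FPKM.

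Among inward rectifiers, the G protein-gated subunits Kcnj9 and Kcnj6 led at 23.4 and 17.6 FPKM. The Kcnj9 locus also spans Igsf8, another coding gene, so its level may hold reads of both. Their partner Kcnj3 was listed at 0.751 FPKM, but its locus held 0% of the gene's coding bases and lay 5.78 kb outside the annotated gene. The strongly rectifying Kcnj4, Kcnj2 and Kcnj12 were at 7.44, 4.46 and 1.22 FPKM. The glial Kcnj16 and Kcnj10, which clear potassium into astrocytes, were at 6.52 and 5.13 FPKM, and Kcnj11, the pore of ATP-sensitive channels, at 3.91 FPKM.

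Tandem-pore channels carry leak currents, and Kcnk1 and Kcnk9 were the highest at 15.6 and 11.1 FPKM. The mechanically and lipid-sensitive pair Kcnk10 and Kcnk2 followed at 8.63 and 7.44 FPKM, and Kcnk13, known from microglia, stood at 1.68 FPKM. Kcnk12, a relative of Kcnk13, was at 1.54 FPKM and the leak channel Kcnk3 at 0.691 FPKM. Kcnt2 and Kcnt1, the sodium-activated channels, were at 23.3 and 10.2 FPKM, and the small-conductance calcium-activated Kcnn1 and Kcnn3 at 6.78 and 2.71 FPKM. Kcnma1, the pore of the large calcium-activated channel, was listed at 0.676 FPKM while its locus held 0.473% of the gene's coding bases, so this value covers only that part of the gene. Kcnn2 was listed at 0.309 FPKM from a locus with 0% of the coding bases, and Kcnu1, a channel of sperm, at 1.56 FPKM.

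Accessory genes gave the largest family sum. Kcnab2, a beta subunit of Kv1 channels, was second overall at 75.6 FPKM, with Kcnab1 at 28.7 FPKM. Kcnip3, one of the calcium sensors bound to Kv4 channels, was at 28.2 FPKM, and Kcnmb4, the neuronal beta subunit of the large calcium-activated channel, at 26.3 FPKM. Kcnip1, Kcnmb2 and Kcne1l followed at 9.42, 3.85 and 1.30 FPKM.

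Within groups, the median coefficient of variation (CV, SD over mean) of the 56 genes was 11.13%, against 11.02% over protein-coding loci tested. Kcnj9, Kcnh7 and Kcnd2 were the steadiest at 4.03%, 4.10% and 5.20%, and Kcnj13 and Kcnh8 the most variable at 195.5% and 82.4%. At 27 of the 56 genes the highest library was under 1.5 times the lowest.

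Where the loci were laid over the GENCODE annotation of GRCm38, 61 of 63 overlapped the gene of the same name and 45 held all of its coding bases. For 9 genes the locus held under 50% of them: Kcna4, Kcnd1, Kcnh8, Kcnj3, Kcnk3, Kcnk6, Kcnma1, Kcnn2 and Kcnu1. Those of Kcna4 and Kcnj3 lay outside the annotated gene, so these values are not levels of the named genes as annotated. Another coding gene lay within the span of 8 loci, among them Gigyf2 at Kcnj13, Igsf8 at Kcnj9 and Nphp4 at Kcnab2. The libraries were directional and antisense loci are listed apart. How far reads from such overlapping genes were told apart in the authors' counting is not stated in any source used here.

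Summed by family, the 3 groups lay close together. All 63 genes summed to 801.3 ± 20.9 FPKM in siHdac4, 791.7 ± 13.3 FPKM in siBdnf and 792.5 ± 8.99 FPKM in siScramble (SD, n = 4 each). Kv7 summed to 114.0, 117.2 and 113.6 FPKM in siHdac4, siBdnf and siScramble, and accessory genes to 177.3, 172.9 and 170.0 FPKM in the same order.

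Against siScramble, every family sum overlapped in both siRNA groups. Between siHdac4 and siBdnf, silent Kv genes summed to 41.9 to 45.2 FPKM in siHdac4, against 37.6 to 40.9 FPKM in siBdnf, and inward rectifiers to 71.6 to 75.7 FPKM in siHdac4, against 67.3 to 69.4 FPKM in siBdnf. These 2 sums did not overlap between those groups, while the siScramble libraries, at 37.2 to 44.0 FPKM and 67.7 to 80.7 FPKM, overlapped both. Of all single loci tested, 13.0% did not overlap between siHdac4 and siBdnf. Among inward rectifiers the only gene without overlap was Kcnj6, at 17.2 to 20.3 FPKM in siHdac4 and 13.5 to 15.9 FPKM in siBdnf. The inward rectifier sum and Kcnj6, described below, are therefore not separate observations. In whole tissue, fewer cells of a type and less RNA per cell cannot be told apart. No test was made of these sums.

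**Figure D2:**
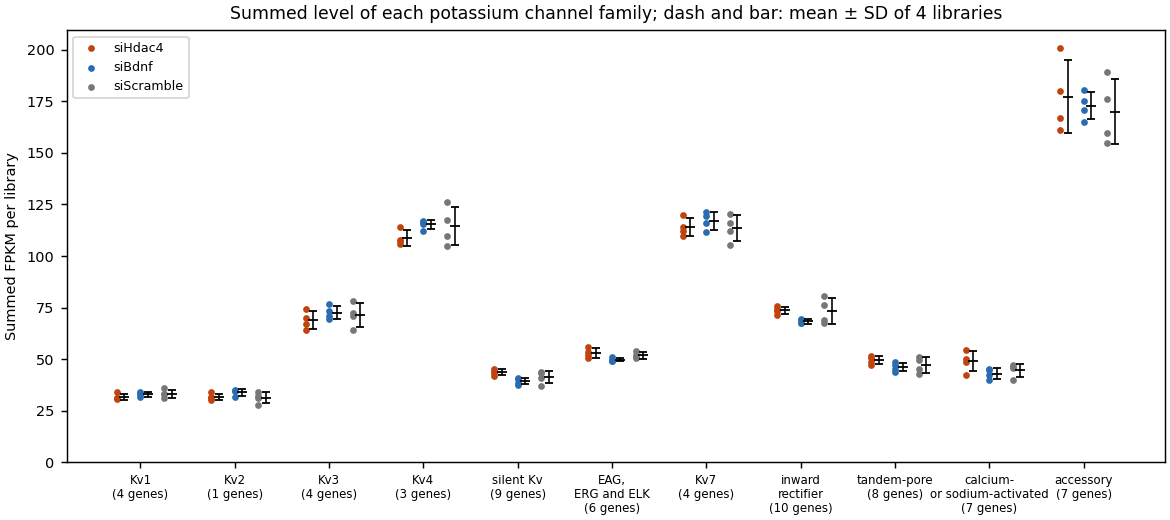
Summed FPKM of each channel family per library, with siHdac4, siBdnf and siScramble from left to right and the mean ± SD of 4 libraries beside the points. The siHdac4 and siBdnf points are apart for silent Kv genes (lowest siHdac4 library 41.9, highest siBdnf library 40.9 FPKM) and inward rectifiers (71.6 and 69.4 FPKM), and overlap elsewhere.

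For siHdac4 against siScramble, 0 of the 56 genes tested had an adjusted p under 0.05 (limma, Benjamini-Hochberg), against 0.261% of all loci tested. At an unadjusted p under 0.05 there were 5 genes, 8.93% of the 56, against 10.1% of all loci. Kcns2, Kcnk13, Kcng4 and Kcnh3 were on the higher side (7.14%, against 4.51% of loci) and Kcnj13 on the lower (1.79%, against 5.63%). Among protein-coding loci alone, 5.27% were on the higher side and 5.45% on the lower. The groups did not overlap at 2 genes, Kcnk13 and Kcns2, which is 3.57%, against 3.75% of loci. The median log2 fold change was 0.03, with 35 genes above 0 (62.5%, against 47.5% of loci) and 21 below, against a median of -0.01 over all loci. Over protein-coding loci alone, 50.5% lay above 0, with a median of 0.00198. Log2 fold changes lay within 0.2 of 0 at 45 of the 56 genes. The largest positive one, 0.55, was that of Kcnh8, which read 1.25, 0.938, 4.46 and 1.08 FPKM in siHdac4, against 0.853, 0.317, 0.620 and 1.75 FPKM in siScramble, with 1 high siHdac4 library and overlap.

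Kcns2, a silent subunit that modifies Kv2 channels (chr15:34702031-34843546 in the tables' coordinates), had the smallest p. It read 7.56, 8.07, 7.27 and 7.05 FPKM in siHdac4, against 7.04, 5.93, 5.35 and 6.30 FPKM in siScramble. The lowest siHdac4 library lay just above the highest siScramble library, library 1. The log2 fold change was 0.25 ± 0.08 (SE), with an adjusted p of 0.431 in limma.

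Kcnk13 had 1.67, 1.68, 1.89 and 2.21 FPKM in siHdac4, against 1.51, 1.45, 1.33 and 1.38 FPKM in siScramble, and limma gave a log2 fold change of 0.24 with adjusted p = 0.458. All siHdac4 libraries lay above all siScramble libraries, at a level where the +1 added before the log shrinks a change. Summed microglial markers were 69.7 to 76.5 FPKM in siHdac4, 64.9 to 69.5 FPKM in siBdnf and 64.1 to 75.9 FPKM in siScramble, and their part in the result was not tested. Kcng4, a silent subunit, averaged 1.19 ± 0.171 FPKM in siHdac4 and 0.861 ± 0.126 FPKM in siScramble (SD, n = 4 each), with overlap.

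Kcnh3 (chr15:99224562-99241946) was the one named gene whose call turned on a single library. It read 9.05, 9.98, 8.59 and 7.83 FPKM in siHdac4, 6.95, 6.78, 7.50 and 6.48 FPKM in siBdnf, and 9.78, 6.47, 5.29 and 6.30 FPKM in siScramble. siScramble library 1 lay among the siHdac4 values and the other 3 siScramble libraries below the siBdnf values, the highest of them only just. Against siScramble the siHdac4 log2 fold change was 0.33 ± 0.14 (SE), with an adjusted p of 0.486 in limma. Without siScramble library 1 it was 0.49 with an adjusted p of 0.0373, and over all alternatives its adjusted p ran from 0.0373 to 0.770. Library 1 was the highest of the siScramble libraries at 20 of the 56 genes, 35.7%, against 23.3% of all loci. It was also the lowest of them at 15 of the 56 genes, 26.8%, against 32.7% of all loci.

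Of the genes on the lower side, Kcnj13, an inward rectifier of choroid plexus epithelium, read 0.305, 0.336, 0.495 and 0.256 FPKM in siHdac4, 0.817, 0.173, 0.314 and 0.295 FPKM in siBdnf, and 2.49, 0.573, 10.3 and 0.311 FPKM in siScramble. Both high values are those of siScramble libraries 1 and 3, the libraries with high choroid plexus markers, and the gene passed the 1 FPKM limit only through them. The log2 fold change was -1.16 ± 0.52 (SE) for siHdac4 (limma adjusted p = 0.490) and -1.12 for siBdnf. Without those 2 libraries these were -0.09 and -0.06. Its locus overlaps Gigyf2, which was at 102.7 to 116.2 FPKM in siHdac4, 119.3 to 132.8 FPKM in siBdnf and 96.2 to 130.8 FPKM in siScramble. Kcnh2 and Kcng3 had log2 fold changes of -0.32 and -0.13 with adjusted p over the threshold in limma.

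**Figure D3:**
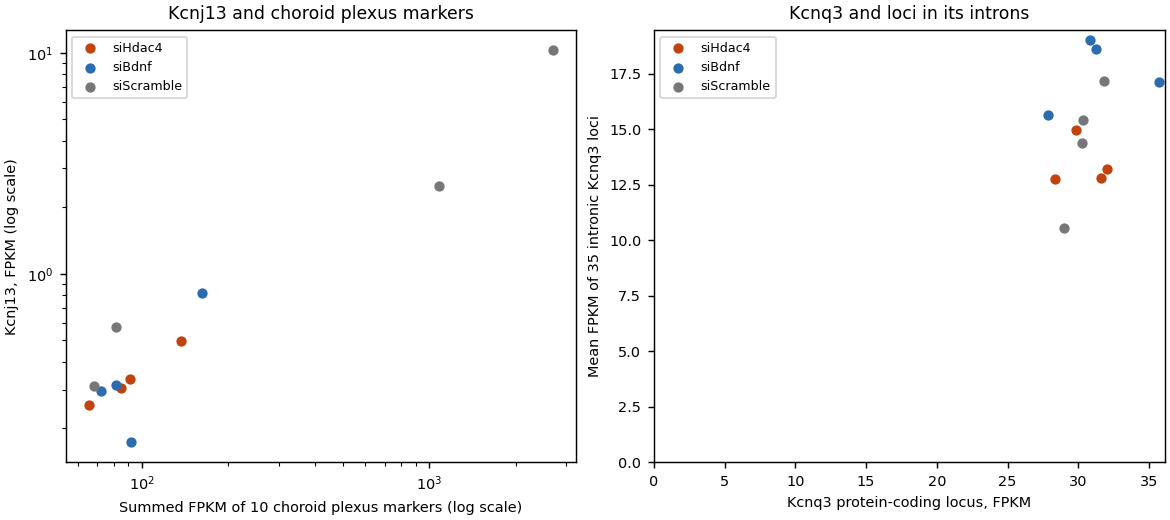
Left: FPKM of Kcnj13 against the summed FPKM of 10 choroid plexus markers per library (both log scales); right: mean FPKM of 35 loci in Kcnq3 introns against FPKM of the Kcnq3 protein-coding locus. The siHdac4 and siBdnf points lie low on the left plot, with siScramble libraries at 2.49 and 10.3 FPKM of Kcnj13 far from them, and on the right plot the groups share a range of Kcnq3 but siBdnf lies higher than siHdac4 on the intronic axis.

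For siBdnf against siScramble, 0 of 56 genes had an adjusted p under 0.05 in limma, against 0.277% of loci. There were 3 genes at an unadjusted p under 0.05, 5.36%, against 8.85% of loci: Kcnj9 and Kcnk13 on the higher side (3.57%, against 5.72% of loci) and Kcnj6 on the lower (1.79%, against 3.13%). Among protein-coding loci alone, 4.61% were on the higher side and 3.63% on the lower. Only Kcnj6 did not overlap between the groups, 1.79%, against 5.09% of loci. The median log2 fold change was -0.00162, with 26 genes above 0 (46.4%, against 56.4% of loci) and 30 below, against 0.02 over all loci. Over protein-coding loci alone, 50.7% lay above 0, with a median of 0.0022. This comparison and the one before it share the 4 siScramble libraries.

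Kcnj6 (chr16:94748629-94997743), a pore subunit of the G protein-gated inward rectifier, read 20.3, 18.2, 18.6 and 17.2 FPKM in siHdac4, 13.5, 14.6, 15.9 and 15.6 FPKM in siBdnf, and 23.2, 18.4, 17.6 and 17.6 FPKM in siScramble. At this protein-coding locus every siBdnf library was below every library of the other groups. For siBdnf against siScramble the log2 fold change was -0.34 ± 0.09 (SE), with an adjusted p of 0.375 in limma. For siHdac4 against siBdnf it was 0.30, with an adjusted p of 0.226 in limma. Its partner Kcnj9 averaged 23.9 ± 0.962 FPKM in siHdac4, 24.3 ± 0.954 FPKM in siBdnf and 22.2 ± 0.919 FPKM in siScramble (SD, n = 4 each), and its log2 fold change for siBdnf was 0.12. Neither passed the adjusted threshold, and the part of Igsf8 in the Kcnj9 value was not tested. A further locus named for Kcnj6, listed as run-on, overlapped between all groups. It read 4.19, 3.75, 2.99 and 4.16 FPKM in siHdac4, 3.59, 4.50, 4.19 and 5.10 FPKM in siBdnf, and 4.28, 4.55, 5.94 and 6.63 FPKM in siScramble. At the run-on locus siBdnf thus did not lie below both other groups, the lowest value being a siHdac4 library. Against siScramble alone its values reached lower, at 3.59 to 5.10 FPKM against 4.28 to 6.63 FPKM, with overlap.

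Other genes of smallest p in this comparison were Kcnmb4 with a log2 fold change of 0.21 and Kcnb2 with 0.12 on the higher side. On the lower side Kcng1, a silent subunit, had -0.35 and Kcnh1, an EAG channel, -0.14. Kcnk13 had 0.19 and was at 1.68, 2.05, 1.48 and 1.86 FPKM in siBdnf.

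Between siHdac4 and siBdnf, 0 of 56 genes had an adjusted p under 0.05 in limma, against 0.0272% of loci. At an unadjusted p under 0.05 there were 5 genes, 8.93%, against 15.6% of loci, and all 5 were on the higher side, against 5.14% of loci higher and 10.4% lower: Kcnc4, Kcnh3, Kcnj6, Kcnk10 and Kcnv1. Among protein-coding loci alone, 5.97% were on the higher side and 6.99% on the lower. The groups did not overlap at 3 genes, 5.36%, against 13.0% of loci: Kcnh3 and Kcnj6 higher and Kcnc1 lower. The median log2 fold change was 0.02 with 34 above 0 (60.7%, against 42.9% of loci) and 22 below, against -0.03 over all loci. Over protein-coding loci alone, 49.5% lay above 0, with a median of -0.00159. The share of genes above 0, 60.7%, was 78.6% after quantile scaling and 76.8% after median scaling. The median over all loci rose too, from -0.03 to 0.0164 by quantile and 0.0153 by median scaling. The 42.9% of all loci and 49.5% of protein-coding loci above 0 are from the data as deposited and are no background for the scaled shares. Over all loci, the share of unadjusted calls on the higher side moved with the scaling as well: 33.0% as deposited, 53.4% by quantile and 52.1% by median scaling, and for siHdac4 against siScramble 44.5%, 58.2% and 64.5%.

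Kcnk10 (chr12:98428901-98574924), a leak channel opened by stretch and lipids, had the smallest p of this comparison. It read 10.8, 11.1, 9.76 and 8.39 FPKM in siHdac4, against 6.55, 7.01, 8.63 and 7.52 FPKM in siBdnf. The ranges overlap by 1 library of each group, siHdac4 library 4 and siBdnf library 3. The log2 fold change was 0.38 ± 0.11 (SE), with an adjusted p of 0.223 in limma. Kcnk2, its closest relative, had a log2 fold change of -0.01.

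Kcnc4, a fast-inactivating Kv3 gene, had 4.07, 4.50, 4.69 and 4.74 FPKM in siHdac4, against 3.37, 4.27, 3.55 and 3.38 FPKM in siBdnf, and limma gave a log2 fold change of 0.25 with adjusted p = 0.258. Only siBdnf library 2 reached into the siHdac4 range. Kcnc1, from the same family, had a log2 fold change of -0.17, so Kv3 genes stood on both sides of 0. Kcnc1 read 17.0, 15.7, 15.5 and 17.2 FPKM in siHdac4, against 17.9, 18.6, 18.2 and 19.2 FPKM in siBdnf. Every siHdac4 library of Kcnc1 lay below every siBdnf library. Kcnip3 and Kcne1l had -0.22 and -0.19. Interneuron markers summed to 468.1 to 519.8 FPKM in siHdac4, 461.1 to 544.0 FPKM in siBdnf and 467.6 to 529.6 FPKM in siScramble. Single markers went both ways for siHdac4 against siBdnf, 6 above and 2 below 0, from -0.78 at Npy to 0.28 at Cck. Of these markers 0 had an adjusted p under 0.05 in limma, against 0.0272% of loci. The part of interneuron markers in the Kv3 values was not tested.

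**Figure D4:**
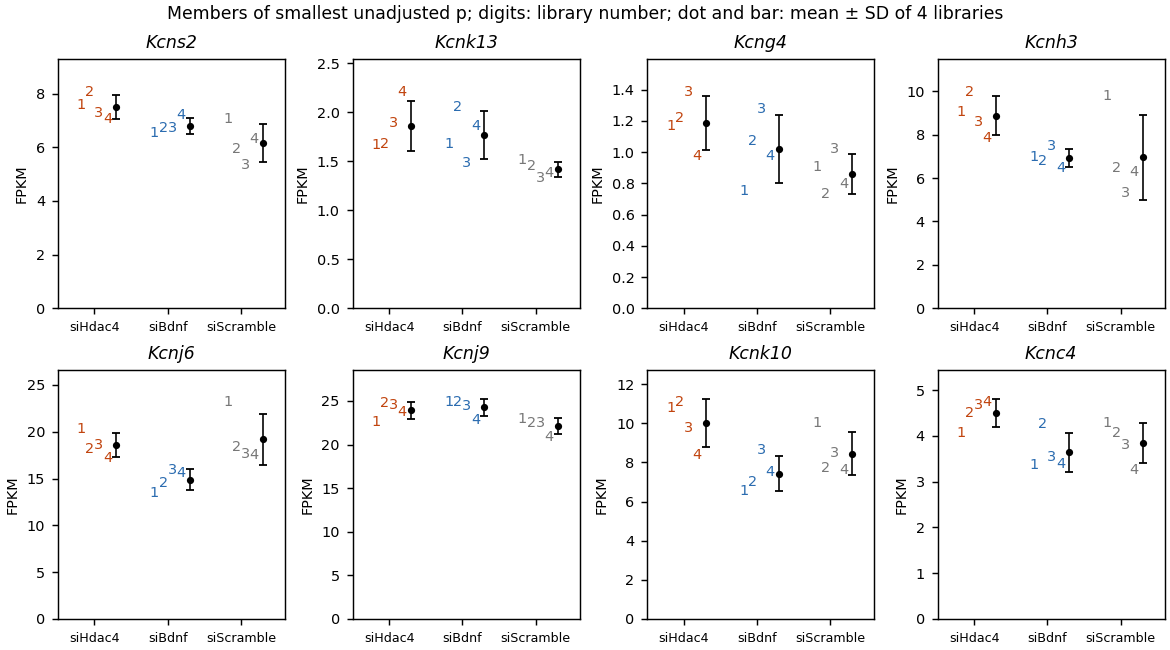
FPKM per library of 8 potassium channel genes with small unadjusted p in at least 1 comparison, with siHdac4, siBdnf and siScramble from left to right, digits for library numbers and a dot and bar for the mean ± SD of 4 libraries. For Kcnj6 all siBdnf libraries lie under 16 FPKM, below both other groups, and for Kcnh3 siScramble library 1, at 9.78 FPKM, lies with siHdac4.

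**Figure D5:**
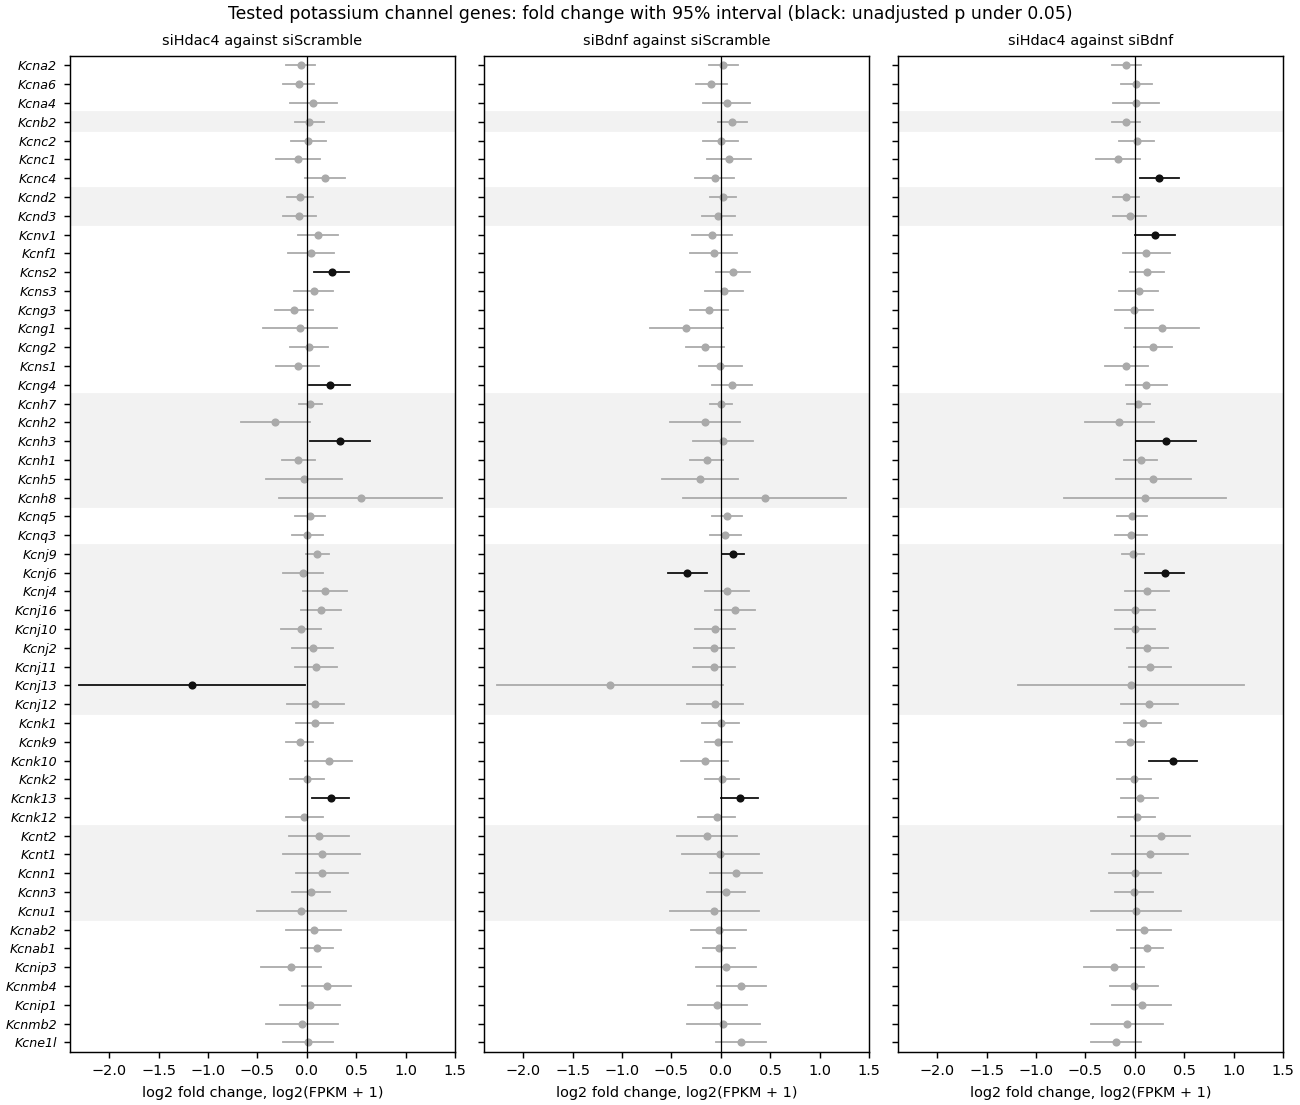
Log2 fold change on log2(FPKM + 1), with 95% interval, of tested potassium channel genes in each of the 3 comparisons, ordered by family (shaded in turn), black where the unadjusted p was under 0.05. Most points lie near 0, Kcnj13 has the widest intervals in both comparisons with siScramble, and no gene passed the adjusted threshold.

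By the authors' deposited table, none of the 63 genes had an FDR under 0.05 for siHdac4 or for siBdnf, where 221 and 141 of all loci did. In the authors' deposited table Kcnd2, Kcnd1 and Kcnn2 carried a p of exactly 1 in both comparisons, Kcnd2 with a log2 fold change of exactly 0, so these genes may not have been evaluated there. For siHdac4, the authors' deposited table had 5 genes with a p under 0.05, led by Kcnh3 with a log2 fold change of 0.35, p = 0.00195 and FDR 0.136. For siBdnf, the authors' deposited table had 1 such gene, Kcnj6, with a log2 fold change of -0.37, p = 0.0179 and FDR 0.492. The share of all loci at that unadjusted p was not set beside either count, so neither singles out these genes.

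No gene listed as working beside the channels passed either. Of 20 partners (anchors, assembly and ubiquitin ligase partners, and sulfonylurea receptors), 16 were measured and 15 tested, and 0 passed in limma in any comparison. At most 0.277% of all loci passed in any comparison, so 0 of 15 does not set the partners apart. They stood at 4 above and 11 below 0 for siHdac4 against siScramble, 7 and 8 for siBdnf against siScramble, and 6 and 9 for siHdac4 against siBdnf. In the same order, 47.5%, 56.4% and 42.9% of all loci and 50.5%, 50.7% and 49.5% of protein-coding loci lay above 0. Dpp6, a Kv4 partner, was at 2.24 ± 0.154 FPKM in siHdac4, 2.26 ± 0.122 FPKM in siBdnf and 2.74 ± 0.480 FPKM in siScramble (SD, n = 4 each). Lingo1 had a log2 fold change of -0.27 for siHdac4 against siScramble and -0.31 for siHdac4 against siBdnf. Ank3, an anchor of channels at the axon initial segment, had -0.17 for siBdnf against siScramble, and Nedd4l, a ubiquitin ligase, -0.27 for siHdac4 against siBdnf.

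Of 10 potassium transport genes 9 were measured and tested, and 0 passed. For siBdnf against siScramble all 9 lay below 0, where 56.4% of all loci and 50.7% of protein-coding loci lay above 0. Slc12a5, the neuronal potassium chloride cotransporter, was at -0.15 in that comparison. For siHdac4 against siScramble 7 of 9 lay below 0, where 47.5% of all loci and 50.5% of protein-coding loci lay above 0. Slc12a7, a related cotransporter, read 0.712, 0.963, 1.28 and 0.903 FPKM in siHdac4, 1.495, 1.60, 2.42 and 2.08 FPKM in siBdnf, and 2.21, 1.78, 4.33 and 1.51 FPKM in siScramble. Every siHdac4 library of Slc12a7 lay below every library of the other groups. Of all loci tested, 3.75% did not overlap between siHdac4 and siScramble and 13.0% between siHdac4 and siBdnf. The Slc12a7 log2 fold change for siHdac4 was -0.76 against siScramble (limma adjusted p = 0.354) and -0.56 against siBdnf (limma adjusted p = 0.258). The highest library of Slc12a7 was siScramble library 3, the one with the highest choroid plexus markers, which also had the highest sum of the 9 genes, 1107 FPKM, against 911.2 to 965.4 FPKM in siHdac4, 904.6 to 956.7 FPKM in siBdnf and 932.3 to 985.0 FPKM in the other siScramble libraries. The part of siScramble library 3 in the counts against siScramble was not tested. Between siHdac4 and siBdnf 5 lay above and 4 below 0, where 42.9% of all loci and 49.5% of protein-coding loci lay above 0.

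Besides the protein-coding rows, 75 loci of other types carried a Kcn name, 62 of them intronic and 35 of those in Kcnq3. For siBdnf against siScramble 34 of the 35 Kcnq3 loci had a log2 fold change above 0, with a median of 0.21, against 2533 of all 3343 intronic loci tested and a median of 0.09. For siHdac4 against siBdnf 32 of 35 lay below 0, with a median of -0.23, against 2704 of the 3343 intronic loci and a median of -0.15. None passed in limma, the loci share 1 gene and so are not separate observations, and the Kcnq3 protein-coding locus had log2 fold changes of 0.04 and -0.04.

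The mean over these 35 loci was 12.8, 13.2, 12.8 and 14.9 FPKM in siHdac4, 15.7, 18.6, 17.1 and 19.0 FPKM in siBdnf, and 10.6, 14.4, 15.4 and 17.2 FPKM in siScramble. The siBdnf libraries all lay above the siHdac4 libraries, and siScramble reached from below siHdac4 into siBdnf. A single intronic locus of Kcnip1 was far more variable, at 26.7 to 43.5 FPKM in siHdac4, 58.1 to 216.1 FPKM in siBdnf and 21.7 to 211.9 FPKM in siScramble. In Kcnma1 4 intronic loci averaged 15.9 to 33.9 FPKM, far above the 0.676 FPKM of its protein-coding row. An antisense locus of Kcns3, a silent subunit, read 3.87, 3.95, 4.24 and 7.35 FPKM in siHdac4, 7.89, 7.74, 6.999 and 6.77 FPKM in siBdnf, and 2.89, 7.46, 10.5 and 9.34 FPKM in siScramble, with overlap, while Kcns3 itself averaged 4.72, 4.58 and 4.45 FPKM in those groups.

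Neighbours on a chromosome were few. Kcnj9 and Kcnj10 lie 11.9 kb apart on chromosome 1, at 23.4 and 5.13 FPKM, and Kcnj16 and Kcnj2 lie 38.2 kb apart on chromosome 11. For siBdnf against siScramble Kcnj9 had a log2 fold change of 0.12 and Kcnj10 of -0.06.

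Promoters were read because CREB, which acts downstream of BDNF signalling, binds the CRE site. Promoter sequence (250 bases before to 50 after the start, RefSeq on GRCm38.p6) was matched for 45 of the 63 genes, with 67 promoters. The full site TGACGTCA, searched on both strands, was in 0 of the 67, against 1.55% of all 32851 promoters. The 5-letter core TGACG was in 10 of 67, 14.9%, against 17.8% of all, and a full site holds the core on each strand. The median GC content of the 250 bases was 60.4%, against 52.4% over all promoters. Of the 10 genes, the ones of smallest p in a comparison were Kcnc1, Kcnc4, Kcng3 and Kcnj13, shown here 5′ to 3′ on the gene's strand with the core or its reverse complement in capitals; a match is a description, not a site in use.
Kcnc4, chr3:107458938-107458982, minus strand: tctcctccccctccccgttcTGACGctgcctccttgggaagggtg
Kcnc1, chr7:46396218-46396256, plus strand: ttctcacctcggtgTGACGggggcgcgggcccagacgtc
Kcng3, chr17:83632079-83632123, minus strand: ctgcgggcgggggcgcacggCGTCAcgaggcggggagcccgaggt
Kcnj13, chr1:87394900-87394944, minus strand: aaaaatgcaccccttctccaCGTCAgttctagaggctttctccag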

How the data were processed

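Per the labels' protocols, TRIzol RNA was poly-A selected and sequenced from directional libraries. TopHat2 2.0.9, Cufflinks and Cuffdiff are the tools in the submitters' processing notes. No genome build was stated, and coordinates are as deposited. The authors deposited 2 tables of FPKM per locus and library, with a log2 fold change, a p-value and an FDR per comparison. The tables hold no read totals, so depth is unknown.

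Because FPKM is not a count, log2(FPKM + 1) was tested with limma 3.58.1 (R 4.3.3, trend), for loci averaging 1 FPKM or more, all 3 groups in 1 fit, no covariates, and Benjamini-Hochberg adjustment over all 18387 loci. Fold changes are on that scale and understate changes of low genes. Named genes were those called, up to 4 per direction of smallest p per comparison, the 2 highest of each family, genes of other cell types, and those beside the 1 FPKM limit. Members and lists were chosen with earlier results of these data known. Marker lists for choroid plexus, microglia, interneurons and dentate granule cells were summed. Simulated data at 18387 loci for siHdac4 against siScramble gave calls at 42% of 50 loci changed by 0.5 and 82% of 50 changed by 1 (log2). The same simulated data also held 50 loci changed by 2 and 50 changed by 4, which eases the adjustment for the rest. Their noise was independent between loci, with no pattern shared within a library. The rates may therefore be lower in the measured libraries. Alternatives were a pseudocount of 0.1, filters at 0.1 and 5 FPKM or none, scaling by quantiles or medians, 2 groups fitted alone, a replicate block, protein-coding loci only, loci listed at 0 left out, and libraries left out. A fit without siScramble library 3 and the loci listed at 0 was added after seeing the data. Some genes are not reported here by name, in text or plots, but are part of counts and sums.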

Additional observations from a re-analysis of the deposited data

Results flagged for a closer look

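Among 114 groups of 4 libraries from 38 named genes, 4 held a library far from the other 3, where chance at 1 in 20 gives about 6. Kcnc2 stood at 46.6 FPKM in siHdac4 library 1, above 39.3 to 39.8 FPKM in the others. Kcnab2 stood at 70.1 FPKM in siBdnf library 4, below the rest of that group, and Kcnb2 at 31.7 FPKM in siBdnf library 1, also the lowest. Kcnj6 stood at 23.2 FPKM in siScramble library 1, the highest of that group.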

How the results depend on the processing

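Of 567 alternative values for 24 named results, 566 kept direction and side of the threshold; the exception was Kcnh3 for siHdac4 against siScramble, called without siScramble library 1. Genes called stayed at 0 in every comparison except 0 to 1 for siHdac4 against siScramble with 1 library left out. For siHdac4 against siScramble, genes at an unadjusted p under 0.05 (5) were 2 with a 5 FPKM filter, 3 with the groups alone and 3 with the added fit, and the median (0.03) was 0.0641 by quantile and 0.0683 by median scaling. Loci called (48) were 1 among protein-coding loci, 1 without loci listed at 0, 1 in the added fit and 79 without siScramble libraries 1 and 3. For siBdnf against siScramble, genes (3) were 1 by quantile scaling, 1 by median scaling and 1 with the groups alone, and loci (51) were 2 among protein-coding loci, 0 without loci listed at 0 and 0 in the added fit. For siHdac4 against siBdnf, loci (5) were 3 with a 5 FPKM filter, 152 with the groups alone, 1 without loci listed at 0, 9 without siScramble libraries 1 and 3 and 0 in the added fit, and the median (0.02) was 0.0638 and 0.0616 by quantile and median scaling. The causes were not tested.

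With 1 library left out, genes at an unadjusted p under 0.05 ranged from 2 to 11 for siHdac4 against siScramble (11 without siScramble library 1, 8 without siHdac4 library 4, 3 without siScramble library 3 or 4, 2 without siHdac4 library 2 or 3). They ranged from 2 to 5 for siBdnf against siScramble (5 without siScramble library 1) and from 2 to 8 for siHdac4 against siBdnf (8 without siHdac4 library 4, 2 without siBdnf library 4, 3 without siHdac4 library 1, 2 or 3, siBdnf library 1 or siScramble library 4). Loci called ranged from 44 to 248, 44 to 52 and 2 to 23 in the same comparisons, 248 and 23 without siScramble library 1, and medians from 0.0162 to 0.0387, -0.0131 to 0.00693 and 0.0160 to 0.0472, the last without siBdnf library 4. Deviations of same-numbered libraries correlated at -0.0771 to 0.243. Those of libraries numbered 4 were all above 0, at 0.129, 0.193 and 0.243, and those numbered 1 to 3 lay at -0.0771 to 0.126. Libraries were not paired by number in the main fit. With a replicate block, loci called were 47, 52 and 4 and genes at an unadjusted p under 0.05 were 7, 3 and 6. Counts of genes at an unadjusted p, here and in the paragraph above, were not set beside the share of all loci in the same fits. They therefore do not single out potassium channel genes.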
